A study of Rattus norvegicus with 90 samples.

Results

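The deposited tables of this rat RNA-seq study list 65166 targets per library, of which 40071 are Ensembl transcripts and 25095 are genomic intervals named only by chromosome, start, and end. The 200 intervals described here were selected on abundance: they have the largest sums of estimated counts over all 90 libraries. They make up 0.797% of the intervals by number. The counts that chose them are therefore given as a description, without a test. The tables pair no interval with a gene, and no genome or annotation of the build of the files (Rnor_6.0) was used here, so each interval is called by its coordinates and its rank by summed count, and its place relative to exons, introns, and untranslated regions is not given.

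Male Sprague-Dawley rats, aged 10 weeks when bought and carrying a jugular vein catheter, received an intraperitoneal injection of thioacetamide at 25 mg/kg (low dose) or 100 mg/kg (high dose) or of saline at 3 ml/kg (vehicle). Liver, kidney, and heart were collected 8 or 24 h later, which gave 18 groups of 5 libraries. Food was withheld during the last 8 h before collection at both times. The 8-h rats were dosed in the morning and so had no food after dosing. The 24-h rats were dosed in the late afternoon and had food until that fast. The time since dosing therefore cannot be told apart from the hour of dosing and the feeding after it. The labels do not state which rat a library came from, although the library numbers in the titles mostly lie 30 apart between the organs of matching groups.

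Thioacetamide is a hepatotoxicant that needs metabolic activation. Cytochrome P450 and flavin monooxygenase enzymes of the liver oxidize it, by way of an S-oxide, to a reactive product that binds cell components, and the hepatocytes around the central vein of the lobule, rich in these enzymes, are injured first. Poly(A) selection keeps RNAs that carry a poly(A) tail, and paired reads of such libraries fall along the length of these RNAs. Reads from an unannotated gene, an extended 3' end, or a repeated sequence have no Ensembl transcript to be assigned to, and an interval added to the reference can take them up. Reads that fit several near-identical copies are shared between targets by Kallisto, so the count of an interval that holds a repeat is uncertain.

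A library held between 16332764 and 36303248 estimated counts in total. In bulk tissue, fewer cells of a type and less RNA per cell cannot be told apart. The labelled organs were not checked against marker genes, as transcript identifiers were not paired with gene symbols. A pair of liver libraries were near copies of each other although their labels differ: replicate 1 of the 24-h vehicle group and replicate 1 of the 8-h low-dose group. Their estimated counts differed by at most 0.4 for all 200 members, whereas no other of 4004 pairs of libraries had more than 10 members within 1 count. Since they carry 2 different labels, at least 1 label cannot describe its library. The TMM factor, which scales the counts of a library, was 0.869 in both. The other 24-h vehicle livers had factors of 0.549 to 0.649 and the other 8-h low-dose livers 0.744 to 0.806. The 24-h low-dose livers had 0.803 to 0.882. Which label is wrong was not tested. Below, "without the near copy" means that the one of the pair that entered the comparison was left out and the fit repeated.

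The 200 intervals took 72.8% of all interval counts and 8.21% of all counts. Over single libraries their share of all counts ran from 2.29% to 26.7%, with a median of 5.88%. The median interval outside the set had a summed count of 572, against 111944 for the median member. Most of the members' counts sat in a few intervals. The first 4 alone held 65.7% of the members' counts. Rank 1 is chr14:46646819-46649470 with a summed count of 38451822 and rank 2 is chr1:11907094-11915036 with 30738284. Rank 3 is chr14:46634208-46645665 with 29894767 and rank 4 is chr5:91126214-91132467 with 22217349. The order below these drops quickly: rank 5, chr4:180832445-180852444, had 7091754, and rank 14, chr4:120771589-120778079, had 500880. Per kilobase of interval, rank 1 had 14499200 summed counts and stood above ranks 2 to 4, which had 3869860, 2609070, and 3552500. At the limit of the set, the last 3 members, chr16:18821145-18841144, chr9:67283101-67292808, and rank 200, chr5:24417389-24434371, had summed counts of 75323, 74939, and 74919, and the next 3 intervals outside it, chr14:7215527-7226086, chr3:71202912-71209800, and chr15:104226935-104243858, had 74248, 74071, and 73945.

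The share of a library on the members varied widely within groups. In the liver 8 h after vehicle, the 5 libraries placed 2.29%, 5.84%, 21.5%, 6.84%, and 5.94% of their counts on the members. The third library was several times above the other 4. In the heart 24 h after the low dose, the shares were 17.1%, 18.1%, 18%, 2.88%, and 2.77%. These libraries formed a high set of 3 and a low set of 2, and the split ran through all 3 groups of that time along the library numbers in the titles. The 7 hearts numbered 61 to 67 had 8.74% to 18.1% in vehicle, low-dose, and high-dose groups alike, and the 8 numbered 79 to 86 had 2.77% to 7.65%. Within the first run the vehicle hearts had 9.75% and 14.1%, the low-dose hearts 17.1% to 18.1%, and the high-dose hearts 8.74% and 15.5%. In the kidney at 24 h the numbers 31 to 37 had 3.79% to 8.40%, the numbers 50 to 56 had 6.21% to 14.5%, and those above 90 had 10.1% to 11.9%. In the liver at 8 h the 3 highest libraries were next to each other: the numbers 14 (high dose), 15 (low dose), and 16 (vehicle) had 26.7%, 24.2%, and 21.5%. Number 18 (low dose) had 16.5%, but number 17 (high dose), between it and 16, had 3.43%. In the liver at 24 h the vehicle numbers 19, 20, and 21 had 18.9%, 6.42%, and 23.1%. What the numbers stand for is not given in the labels. The kidney 24 h after the high dose ran from 5.16% to 12.7%. Within a group the highest library exceeded the lowest by between 1.68-fold (liver, 24 h, low dose) and 11.4-fold (liver, 8 h, high dose), where replicate 3 took 26.7%. The part of depth or RNA quality in these shares was not tested.

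**Figure D1:**
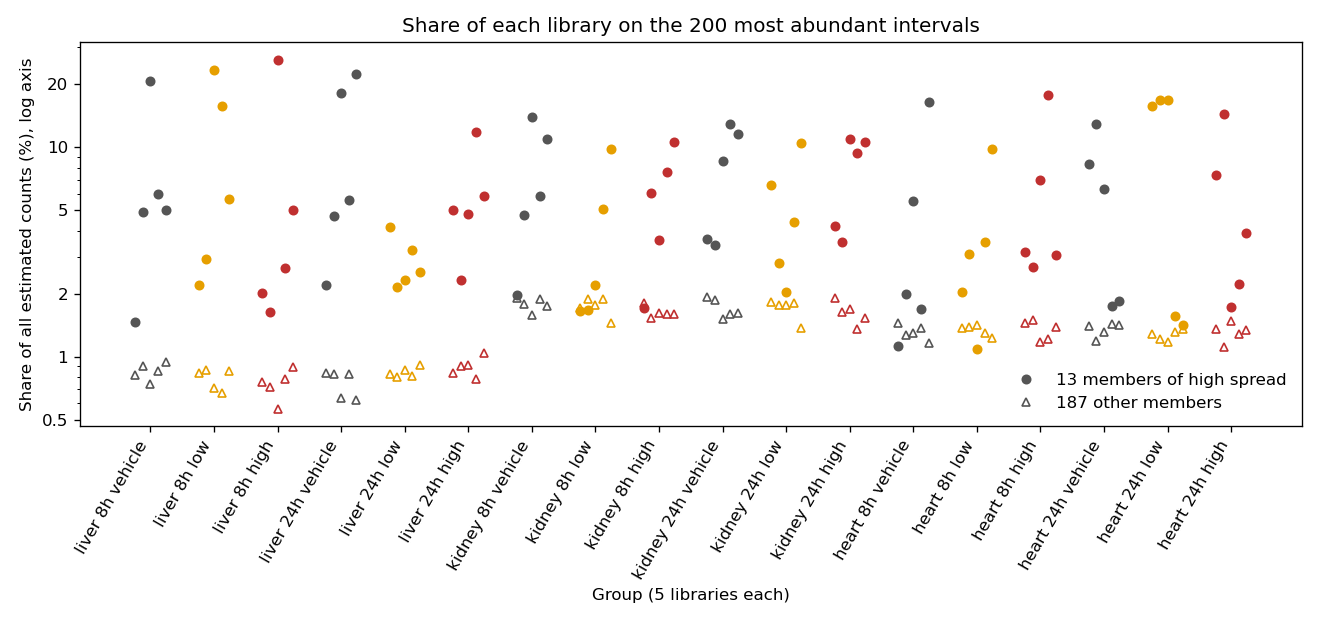
Share of all estimated counts in each library (vertical log axis, percent) on 13 members of high spread between libraries (filled circles) and on the 187 other members (open triangles), by group. Grey marks vehicle, orange the low dose and red the high dose. The circles run from 1.09% to 26.2%, and the triangles stay between 0.56% and 1.94%.

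The spread came from a small set of members. The within-group standard deviation (SD) of log2(CPM + 0.1), where CPM is counts scaled to 1e6 per library, had a median of 0.28 over the 200 members. It was at least 1 for 13 of them (1.13 to 1.49). They are ranks 1 to 10, 12, and 13, and rank 149 (chr8:39738315-39758314); the split at 1 was chosen after the values were seen. These 13 held 84.5% of the members' counts. Their summed share of a library ran from 1.09% to 26.2%, a 24.1-fold range, whereas the other 187 members together took between 0.56% and 1.94%. The members nearest to the limit were rank 7 inside it with an SD of 1.13 and rank 27 outside it with 0.95. Rank 11, chr7:11648823-11660433, the only one of the first 13 outside it, had 0.86.

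The proportions among the 13 varied less than their sum for most of them, but not for all. Over the 90 libraries the share of a member in the counts on the 13 varied by less than 3-fold for 10 members (1.65- to 2.99-fold) and by more for the other 3. Rank 1 took between 17.3% and 36.8% of the counts on the 13 members in all 90 libraries, a 2.12-fold range. Rank 12, chr3:102594467-102614466, took between 0.93% and 1.53%, a 1.65-fold range. Ranks 3, 7, and 10 varied 2.95-, 2.99-, and 2.88-fold. Rank 4 took 4.53% to 30.4%, a 6.70-fold range, rank 2 took 1.68% to 31.3%, an 18.7-fold range, and rank 149 varied 580-fold. The median share of a library on rank 1 was 1.24% in liver, 1.29% in kidney, and 0.78% in heart, and its group medians ran from 0.52% (heart, 8 h, vehicle) to 3.12% (heart, 24 h, low dose). Rank 4 took a median of 0.48%, 0.76%, and 0.54% of a library in the 3 organs. With all libraries, none of the 13 members passed the limits set below in any of the 12 dose comparisons. The lowest adjusted p (edgeR's quasi-likelihood test, Benjamini-Hochberg adjustment) among them over all 12 comparisons was 0.0165, in the kidney 24 h after the high dose. In liver 24 h after the low dose, their log2 fold changes ran from -3.01 to -0.85 with adjusted p-values of at least 0.0328 by the same edgeR test. This depended on 1 library: without the near copy among the vehicle livers the range was -3.29 to -0.86 and 12 of the 13 passed as lower, with a lowest adjusted p of 0.0021 by edgeR. In that fit 8.38% of all targets passed in either direction. With the runs of library numbers as a covariate and all libraries kept, the range was -2.19 to -1.07 and none passed (lowest adjusted p = 0.073 by edgeR). After the high dose at 24 h the log2 fold changes ran from -1.89 to -0.88, and from -2.24 to -0.99 without the near copy, and none passed in either fit. Between organs in vehicle, 1, 4, and 1 of the 13 passed (liver against kidney, liver against heart, and kidney against heart). Of all targets, 13276 of 32233, 15715 of 29441, and 15572 of 32982 passed there. Without the near copy 10 passed between liver and kidney and 9 between liver and heart. The log2 fold changes of the 13 then ran from 1.33 to 2.81 and from 0.94 to 4.12, all higher in liver. The shares of all targets in those fits are not given here. These fits scale by TMM factors, which the shares of a library above do not. In the 24-h low-dose comparison the vehicle libraries carried 2.2%, 4.71%, 18.2%, 5.59%, and 22.5% of their counts on these members, and the low-dose libraries 4.15%, 2.16%, 2.34%, 3.24%, and 2.55%.

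**Figure D2:**
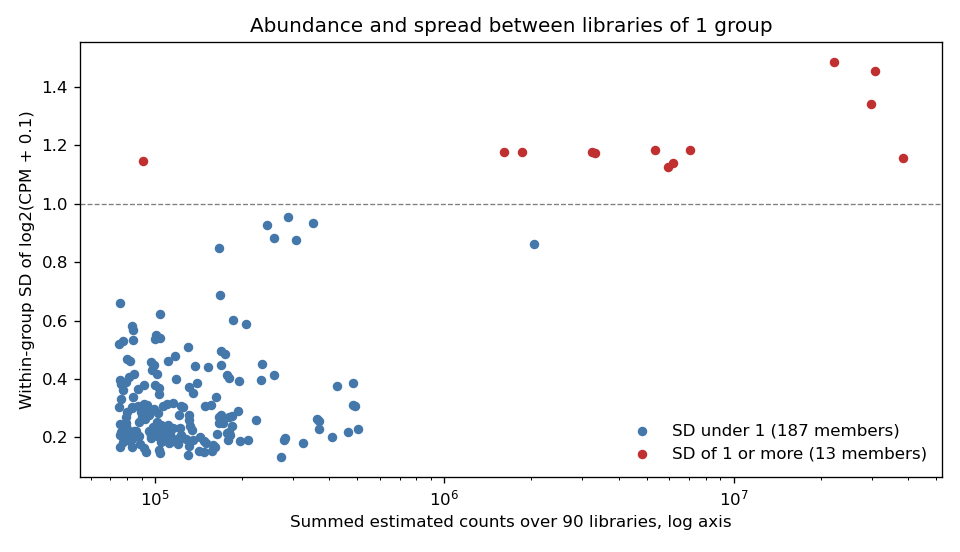
Summed estimated counts over 90 libraries (horizontal log axis) against the within-group SD of log2(CPM + 0.1) for each of the 200 members. The 13 members at or above 1 (red, dashed line) include 12 of the 13 most abundant, and the 187 others (blue) have a median SD of 0.26.

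The members are shorter than intervals in general. Their median length was 11456 bases against 20000 for the other 24895 intervals. The longest length in the tables, 20000 bases, was reached by 21.5% of members and by 55.8% of the other intervals. All 200 lie on numbered chromosomes: 25 on chromosome 1, 21 on chromosome 4, 17 each on chromosomes 3 and 5, and 1 on chromosome 12. None lies on chromosome X or Y, where 1200 of the other intervals lie.

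Neighbouring members were counted as a description only. No intervals in the tables touch, the smallest gap between any 2 being 1049 bases. A limit of 10000 bases between members gave 2 pairs, and the nearest interval of a member had a median rank of 7461 and was itself a member for 4 of the 200. Members are 0.797% of the 25095 intervals by number, and how many such neighbours a random choice would give was not tested. The median member had 81.1 times the summed counts of its nearest interval. The first pair is ranks 3 and 1 on chromosome 14, 1153 bases apart. The count of rank 1 was 0.7 to 3.51 times that of rank 3 over the 90 libraries, with a median of 1.45. The second pair is ranks 4 and 10, chr5:91126214-91132467 and chr5:91135639-91140430, 3171 bases apart. Rank 10 had between 0.04 and 0.6 times the count of rank 4. Within 100000 bases there were 5 pairs. Among the added 3, ranks 2 and 7 (chr1:11970745-11973641) lie 55708 bases apart and both belong to the set that varied between libraries, with a ratio of 0.08 to 2.45. Ranks 187 and 46 (chr20:10870322-10889072 and chr20:10952892-10965830, 63819 bases apart) were both highest in kidney.

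Ranks 124 and 27 (chr4:117472699-117489534 and chr4:117531981-117550439), 42446 bases apart, were high in different organs. Rank 124 had its highest vehicle mean in kidney, and rank 27 in heart. The ratio of rank 27 to rank 124 ran from 0.04 to 432 over the libraries. They also differed in the liver 24 h after the high dose, where rank 27 rose and rank 124 did not pass the limits (values below).

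Organ differences were described in the vehicle libraries, 10 per organ, both times together. CPM values here and below were scaled by TMM factors over all 90 libraries, and a fold change comes from its own fit. In these factors liver libraries had values from 0.55 to 1.23 and kidney libraries from 1.26 to 1.56, so that levels between organs rest on the scaling. A member was taken as set apart where the lowest vehicle library of 1 organ was above the highest of both other organs. This held for 48 members (24.0%) in heart, 32 (16%) in kidney, and 21 (10.5%) in liver. Among all 22362 targets with a mean of at least 1 CPM the same held for 17.7% in heart, 9.77% in kidney, and 10.9% in liver. Without replicate 1 of the 24-h vehicle liver group, the member counts were 50, 32, and 27, and the shares of all targets and intervals were not recounted. None of the 13 members of high spread was among the members set apart with all libraries.

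The 3 highest members set apart in liver were rank 17, rank 40, and rank 57. Rank 17, chr1:141087906-141097194, ran from 661 to 1329 CPM in liver (median 1023), against 32.8 to 72.2 in kidney and 22.8 to 28.3 in heart. Rank 40, chr16:54450927-54459566, had 256 to 716 CPM in liver with a median of 476 and no more than 8.37 in any kidney or heart library. Rank 57, chr5:77903614-77916908, had 195 to 1301 CPM in liver with a median of 821 and at most 1.0 elsewhere. Of the 9 members named here it had the widest gap, with log2 fold changes of 10.58 ± 0.38 (SE) over kidney and 10.01 ± 0.35 over heart (edgeR, adjusted p = 2.99e-16 and 9.06e-17). They were 10.77 and 10.29 without the near copy.

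In kidney the 3 highest were rank 16, rank 14, and rank 15. Rank 16, chr2:225848376-225854129, had 258 to 870 CPM in kidney (median 604), 32.6 to 100.99 in liver, and 12.5 to 19.1 in heart. Rank 14 ran from 357 to 619 CPM in kidney with a median of 492 and from 39.1 to 131 in liver. Rank 15, chr5:120306399-120324614, ran from 301 to 629 CPM in kidney and from 78.4 to 287 in liver, which leaves the smallest gap of the 9 members named here. Ranks 14 and 15 were 2.48 ± 0.16 and 1.29 ± 0.18 lower on the log2 scale in liver than in kidney, or 2.30 and 1.23 lower without the near copy.

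In heart, rank 23, chr6:24182367-24199891, had 415 to 657 CPM (median 495) against 7.76 to 21.1 in liver and 23 to 32.6 in kidney. Rank 18, chr1:259357557-259376432, had 432 to 577 CPM in heart and similar lower levels in the other two, with a difference between liver and kidney of 0.07 ± 0.10 on the log2 scale, or 0.19 without the near copy. Rank 34, chr3:63557862-63565683, had 304 to 364 CPM in heart and at most 1.81 in the other organs.

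**Figure D3:**
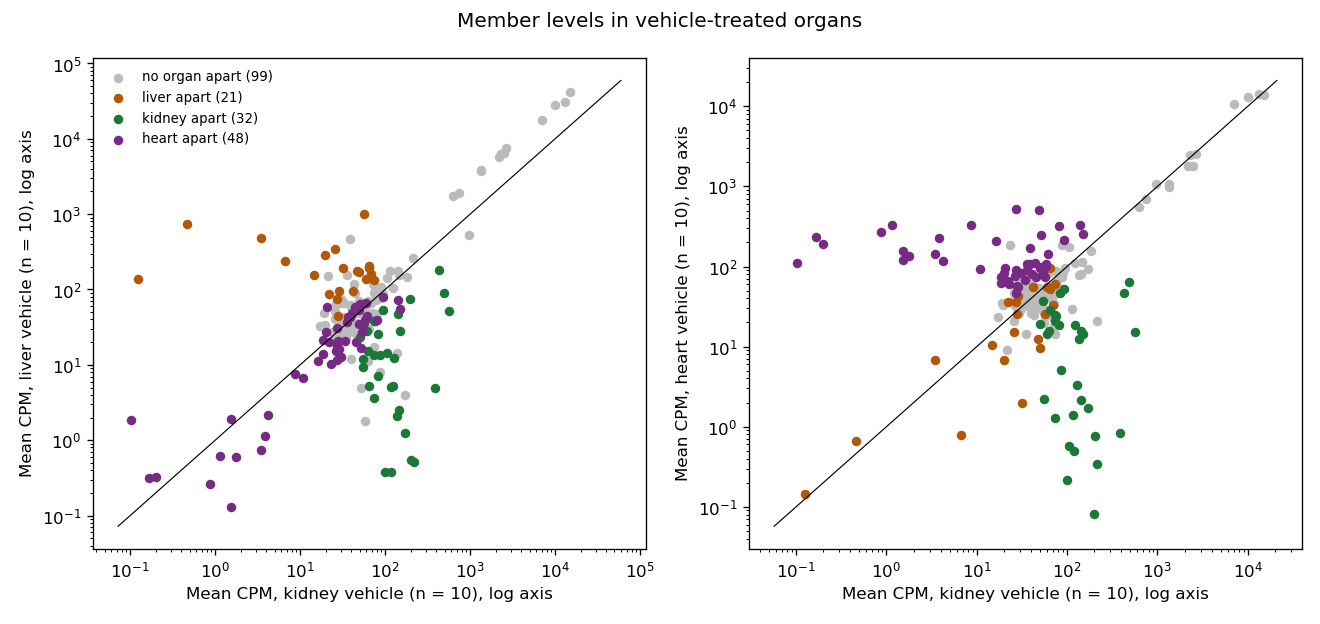
Mean CPM of each of the 200 members in 10 vehicle libraries of liver (left) or heart (right) against kidney, on log axes, with the line of equal level. Colours mark the members whose lowest vehicle library in 1 organ exceeds the highest in both others (21 liver, 32 kidney, 48 heart), and grey the 99 members set apart in none.

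Tested as 10 vehicle libraries against 10 with the time as a covariate, 92 members passed (all but 2 of the 200 were tested) between liver and kidney, 33 higher and 59 lower in liver, where 15.6% of all targets were higher and 25.6% lower. The call required an adjusted p at or under 0.01 together with a natural-log fold change of 0.60 or larger (log2 0.87). Between liver and heart 118 of 199 passed, 51 higher and 67 lower in liver, against 22.9% and 30.5% of all targets. Between kidney and heart 100 of 199 passed, 49 higher and 51 lower in kidney, against 25.3% and 22%. Of all tested intervals, 38.1%, 47.8%, and 42.5% passed in the 3 comparisons. Without the near copy, 42 members were higher and 56 lower in liver than in kidney, and 64 and 63 than in heart. The directions differed between methods: on log2(TPM + 1) with limma the splits were 11 higher and 89 lower, 25 and 71, and 63 and 26. With the intervals fitted alone, 45 were higher and 50 lower in liver than in kidney. The shares of all targets in these other fits are not given here. A shift of the members therefore cannot be told from a shift of all targets. The organs of a rat were treated as separate samples.

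Each dose was tested against vehicle within its organ and time, 5 libraries against 5, with the same limits. The low- and high-dose comparisons of an organ and time share their vehicle libraries. In all, 69 of the 200 members passed in at least 1 of the 12 comparisons, 58 in liver and 18 in kidney. With the near copy left out of each liver comparison it entered, 90 passed in at least 1, 80 of them in liver. The share of all targets that passed in at least 1 comparison is not given here, so these totals are a description only. In the liver 8 h after the high dose alone, 5066 of 23690 targets passed. The median member's log2 fold change lay between -0.19 and 0.02 in the 12 comparisons, beside -0.27 to 0.05 over all tested intervals.

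In the liver 8 h after the high dose, 45 of the 192 members tested passed, 16 higher and 29 lower, where 12.4% of all targets were higher and 8.98% lower and 22.8% of intervals passed in either direction. After the low dose, 5 of 194 were higher and 14 lower, against 4.73% and 4.1% of all targets and 6.74% of intervals. Without the near copy, replicate 1 of the low-dose group, 13 passed (6.2% of all targets). On log2(TPM + 1) with limma the splits were 12 higher and 12 lower at the high dose and 5 and 2 at the low dose.

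The member with the largest fall at 8 h was rank 57, the liver interval on chromosome 5. The 5 vehicle livers had 836, 571, 1205, 842, and 1301 CPM. The low-dose livers had 195, 296, 278, 150, and 86 CPM. The high-dose livers had 99.6, 64.6, 109.3, 37.6, and 75.1 CPM. No treated library reached the lowest vehicle library, and the log2 fold changes were -2.15 ± 0.35 at the low and -3.48 ± 0.35 at the high dose (edgeR, adjusted p = 0.0011 and 1.8e-05).

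Rank 77, chr7:126682253-126686904, also fell at both doses. Its vehicle livers had 150, 235, 134, 177, and 200.6 CPM. After the low dose it had 45.7, 80.6, 57.8, 88.6, and 32.5 CPM, and after the high dose 27.6, 32.9, 25.7, 37.3, and 28.2 CPM. Both doses lay below every vehicle library and overlapped each other. The log2 fold changes were -1.45 ± 0.26 and -2.43 ± 0.15 (edgeR, adjusted p = 0.0019 and 1.3e-06). Rank 193, chr7:94997871-95017870, fell about as far at both doses: its vehicle livers had 66 to 84.8 CPM, the low-dose livers 22.8 to 32.4, and the high-dose livers 22.3 to 28.6. Its log2 fold changes were -1.38 ± 0.12 and -1.43 ± 0.11. Rank 124 dropped from a low level, with 3.07, 1.12, 3.84, 4.53, and 4.54 CPM in vehicle livers and 0.492, 0.291, 0.350, 0.177, and 0.563 CPM after the high dose, a log2 fold change of -3.05 ± 0.44 (edgeR, adjusted p = 0.00022).

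The largest rise at 8 h was that of rank 194, chr6:30003663-30023662. Its vehicle livers had 15.9, 8.54, 11.3, 10.6, and 4.0 CPM, and its high-dose livers 68.7, 26.7, 43.0, 24.2, and 47.3 CPM. Every treated library was above every vehicle library at both doses. The log2 fold changes were 1.52 ± 0.31 at the low and 2.19 ± 0.37 at the high dose (edgeR, adjusted p = 0.0037 and 0.00063). Rank 200, chr5:24417389-24434371, had 24.3, 42.6, 22.3, 31, and 43.2 CPM in vehicle livers. It had 64.7 to 71.7 CPM after the low dose and 68.1, 107, 89.1, 114, and 150 CPM after the high dose. Its log2 fold changes were 1.16 ± 0.17 and 1.84 ± 0.23. Rank 164, chr16:19382797-19385236, went from 9.55 to 12.9 CPM in vehicle to 26.9 to 37.4 after the high dose (log2 1.73 ± 0.14), and rank 170, chr7:114327431-114338933, from 13.1 to 20.3 CPM in vehicle to 27.7 to 42.4 after the low dose (log2 1.15 ± 0.19).

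Leaving out the near copy, the low-dose log2 fold changes at 8 h were -2.15 for rank 57, -1.37 for rank 77, -1.34 for rank 193, 1.53 for rank 194, 1.13 for rank 200, and 1.16 for rank 170, and all 6 passed in that fit. Rank 194 passed in 6 of 10 fits that left out 1 library.

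In the liver 24 h after the high dose, 33 of 193 members passed, 6 higher and 27 lower, against 6.48% of all targets higher and 8.0% lower and 10.2% of intervals in either direction. On log2(TPM + 1) with limma the split was 25 higher and 7 lower, where the median target shifted by 0.4 against 0.08 with edgeR. The low dose gave 1 call among 191 members, a fall, against 1.38% of all targets and 0.4% of intervals. Leaving out replicate 1 of the vehicle group, the near copy of an 8-h low-dose library, raised these numbers to 26 of 193 at the low dose (8.38% of all targets) and 56 of 194 at the high dose (25.5% of all targets), 12 higher and 44 lower.

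The largest falls at 24 h were on chromosome 1. Rank 95, chr1:226108833-226113912, had 95.7, 456, 421, 355, and 171 CPM in the vehicle livers, the first value being the near copy. After the low dose it had 154, 33.2, 82.1, 126, and 56.2 CPM, which overlaps vehicle. After the high dose it had 6.45, 3.72, 5.79, 12.7, and 8.98 CPM, all below every vehicle library. The log2 fold change at the high dose was -5.27 ± 0.49 (edgeR, adjusted p = 0.0001) and -5.57 without the near copy. At 8 h the same interval had 258, 533, 135, 473, and 498 CPM in vehicle and 65.1, 55.5, 61.7, 74.4, and 93.3 CPM after the high dose, a log2 fold change of -2.28 ± 0.32. The difference between the 2 times was -2.97 ± 0.57 on the log2 scale (edgeR interaction, adjusted p = 0.0022).

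Rank 126, chr1:225904225-225924224, lies 184608 bases before rank 95, with 3 other intervals between them, and had similar values. Its vehicle livers at 24 h had 87.5, 358, 382, 285, and 164 CPM, and its high-dose livers 10.9, 7.73, 9.81, 23, and 16.1 CPM. The log2 fold change was -4.20 ± 0.44 (edgeR, adjusted p = 0.00016) and -4.49 without the near copy. The ratio of rank 95 to rank 126 stayed between 0.48 and 1.28 over the 30 liver libraries, with a median of 1.04. Rank 57 also remained low at 24 h, with 195, 304, 517, 888, and 805 CPM in vehicle and 25.6, 24.2, 85, 12.8, and 42.1 CPM after the high dose (log2 -3.81 ± 0.57, or -4.10 without the near copy).

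Rank 53, chr9:10002464-10004305, was the single call of the low dose at 24 h. Its vehicle livers at 24 h had 74.8, 236, 170, 219, and 151 CPM, the low-dose livers 76.8, 66.1, 72, 74.4, and 72.3 CPM, and the high-dose livers 20.7, 9.30, 19.5, 23.4, and 12.3 CPM. Only the near copy among the vehicle libraries fell within the range of the low dose. The log2 fold changes were -1.29 ± 0.23 and -3.28 ± 0.33 (edgeR, adjusted p = 0.0090 and 0.00014), and -1.46 and -3.54 without the near copy. The call of the low dose held in 1 of 10 fits that left out 1 library, the fit without the near copy. At 8 h it fell by about the same amount at both doses, with 53.3 to 85.4 CPM after the low and 74.4 to 84.6 after the high dose, against 153 to 233 in vehicle. Its high-dose effect was lower at 24 h than at 8 h by 2.22 ± 0.35 (edgeR interaction, adjusted p = 0.00056).

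Among the 6 rises at 24 h, rank 75 and rank 38 were the largest. Rank 38, chr15:30528213-30548212, had, at 24 h, 18.7, 29.2, 19.1, 26.1, and 33.5 CPM in vehicle and 115, 214, 141, 76.7, and 141 CPM after the high dose, a log2 fold change of 2.48 ± 0.27 (edgeR, adjusted p = 0.00018) and of 2.32 without the near copy. At 8 h the same dose gave 19.3, 18.4, 64, 22.2, and 20.3 CPM, of which 4 lay below every vehicle library of that time and 1 above all of them. Rank 75, chr4:123636541-123641709, had 10.4, 21.4, 3.87, 2.92, and 6.42 CPM in vehicle and 31.9, 84.3, 30.9, 39.7, and 56.8 CPM after the high dose (log2 2.49 ± 0.52, or 2.50 without the near copy). Its call held in 5 of 10 fits that left out 1 library. Rank 27, the heart interval on chromosome 4, had 6.99, 14.6, 5.11, 7.45, and 5.72 CPM in vehicle livers and 24.1, 15.4, 41.1, 22.8, and 79.8 CPM after the high dose (log2 2.24 ± 0.45, or 2.14 without the near copy), with a call in 7 of 10 such fits. Its neighbour rank 124 was at 0.24 to 3.19 CPM in vehicle and 0.37 to 0.68 CPM after the high dose (log2 -1.64 ± 0.5, adjusted p = 0.028 by edgeR), and passed in 1 of 10 fits that left out 1 library, the fit without the near copy.

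The members set apart by organ in vehicle were also counted in the dose comparisons of the liver and, for the kidney members, of the kidney. Of the 21 members set apart in vehicle liver, 12 were lower and 0 higher in the liver 24 h after the high dose, with a median log2 fold change of -0.94, where 8.0% of all targets were lower and 6.48% higher and the median target stood at 0.08. In the fit without the near copy 13 were lower and 1 higher, and with the members set apart without it as well, 18 of 27 were lower and 1 higher. In that fit 25.5% of all targets passed in either direction. The count differed between methods. With limma on log2(TPM + 1), which changes the test as well as the scaling, 3 of the 21 were lower and 1 higher. The median there was -0.11 beside 0.40 over all targets. DESeq2 gave 12 lower and 0 higher, and the intervals fitted alone gave 7 and 0. The cause of these differences was not tested. At 8 h 5 were lower and 0 higher with edgeR, where 8.98% of all targets were lower, and 4 and 1 with limma on log2(TPM + 1). Of the 48 heart members 44 could be tested in the liver at 24 h, and 3 were higher and 1 lower, or 3 and 6 without the near copy and 7 and 0 with limma. Of the 32 kidney members 29 were tested in the liver after the high dose. There 3 were higher and 6 lower at 8 h, and 1 and 6 at 24 h. In the kidney itself after the high dose, 0 of the 32 were higher and 5 lower at 8 h, and 0 and 9 at 24 h. In those kidney comparisons 0.826% (8 h) and 2.32% (24 h) of all targets were lower. The difference between these counts was not tested, and the vehicle libraries that set these members apart are the same ones that entered the comparison. A choice by high vehicle values favours falls in the same organ, so these counts are a description only.

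Whether the high dose acted differently at the 2 times was asked with an interaction term, fitted to 20 libraries, at an adjusted p of no more than 0.01. The 2 times also differ in the hour of dosing and in feeding after it, which this term cannot separate from the time itself. Among liver members 14 of 195 passed, 4 with a higher and 10 with a lower effect at 24 h, against 2.63% and 2.75% of all targets. Without the near copy 16 passed, 6 higher and 10 lower. With limma on log2(TPM + 1) the split was 12 higher and 1 lower. The largest rise was that of rank 38, whose effect was higher at 24 h by 2.33 ± 0.49 (edgeR interaction, adjusted p = 0.0040). Rank 126, the chromosome 1 interval near rank 95, had an effect lower by 2.24 ± 0.51 (edgeR interaction, adjusted p = 0.0072), but passed in only 5 of 20 fits that left out 1 library. Rank 167, chr10:109803240-109805658, had 39.2 to 49.8 CPM in vehicle and 58.4 to 60.7 after the high dose at 8 h, and 38.3 to 50.05 in vehicle and 29.9 to 39.2 after the high dose at 24 h. Its effect was lower at 24 h by 0.84 ± 0.15 (edgeR interaction, adjusted p = 0.0017). The effect on chr16:18821145-18841144, just inside the rank limit, went from 0.25 ± 0.11 at 8 h to -0.52 ± 0.10 at 24 h, a difference of -0.76 ± 0.13 (edgeR interaction, adjusted p = 0.00093). Rank 156, chr3:113478716-113482768, moved the other way. It had 1.56 to 3.36 CPM in vehicle and 0.37 to 0.99 CPM after the high dose at 8 h, whereas at 24 h it had 0.91 to 2.25 and 1.65 to 2.47 CPM. Its difference was 2.16 ± 0.41 (edgeR interaction, adjusted p = 0.002). Rank 196, chr15:106626338-106628811, had 20.7 to 29.7 CPM in vehicle and 13.3 to 20.1 after the high dose at 8 h, and 19.8 to 24.7 in vehicle and 26.3 to 36.9 at 24 h, a difference of 0.92 ± 0.18 (edgeR interaction, adjusted p = 0.0027). Without the near copy all 8 named members still passed, with differences of -3.19 (rank 95), -2.44 (rank 126), -2.40 (rank 53), -0.77 for both rank 167 and chr16:18821145-18841144, 0.98 (rank 196), 2.03 (rank 156), and 2.26 (rank 38).

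**Figure D4:**
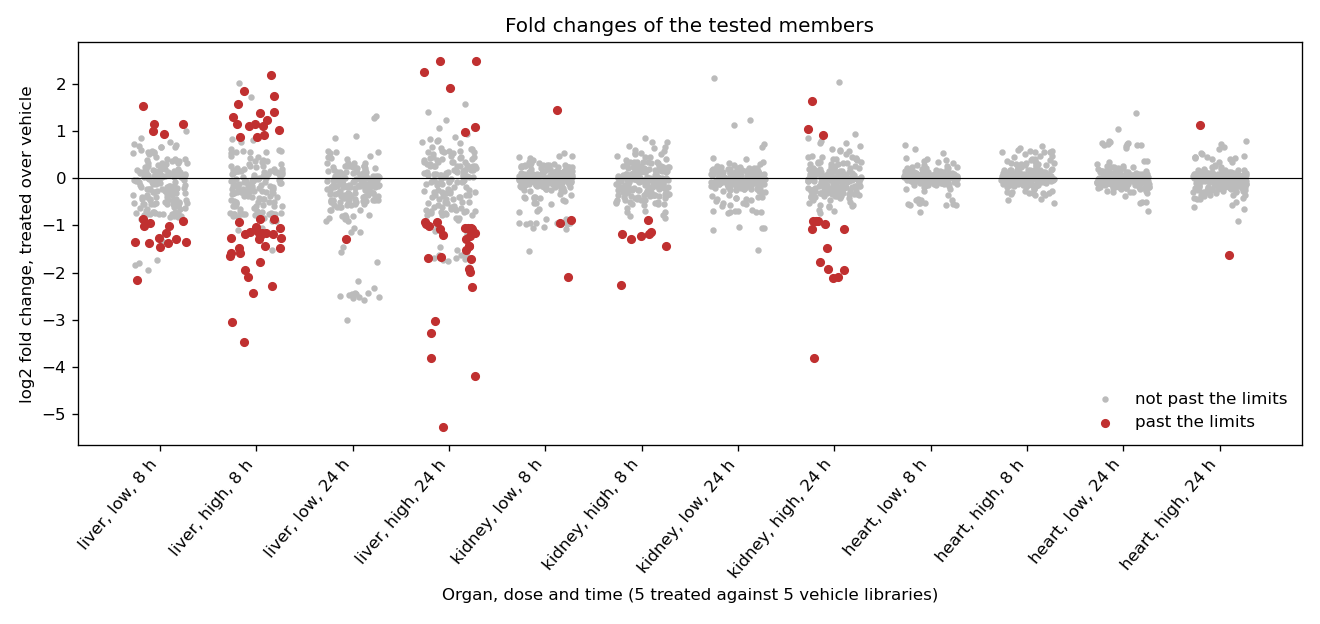
log2 fold change of every tested member in the 12 comparisons of 5 treated with 5 vehicle libraries (vertical axis), with the members past the limits in red. In liver 19, 45, 1, and 33 members passed (low and high dose at 8 h, then at 24 h), in kidney 4, 8, 0, and 16, and in heart 0, 0, 0, and 2.

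In the kidney most calls were falls. At 24 h after the high dose 16 members passed of all but 2 of the 200, 3 higher and 13 lower, against 1.69% of all targets higher and 2.32% lower. At 8 h 8 of 196 passed after the high dose, all lower, against 1.2% and 0.826%. The low dose gave 1 higher and 3 lower of 196 at 8 h, against 0.183% and 0.102%. At 24 h after the low dose no member of 197 passed with edgeR, against 0.0698% of all targets, although 23 members had an unadjusted p under 0.05. DESeq2 called 2 and limma none. On log2(TPM + 1) with limma the splits were 4 higher and 5 lower at 24 h and 0 and 6 at 8 h after the high dose, and 1 and 1 at 8 h after the low dose.

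Rank 114, chr4:176386935-176406934, fell furthest. Its kidneys 8 h after vehicle had 226, 264, 166, 281, and 182 CPM, those after the low dose 52.3, 40.1, 61.2, 62.2, and 51.8, and those after the high dose 42.2, 48.5, 37.2, 36.9, and 62.5 CPM. At 24 h the vehicle kidneys had 248, 172, 192, 223, and 206 CPM. The low-dose kidneys were spread from 13.8 to 120 CPM, and the high-dose kidneys had 12.5, 12.3, 11.8, 19.9, and 15.4 CPM. Both doses stayed below vehicle at both times, and the 24-h low dose missed the limit on the adjusted p (0.20 by edgeR). High-dose log2 fold changes of -2.26 ± 0.19 (8 h) and -3.81 ± 0.18 (24 h) differed by -1.56 ± 0.26 (edgeR interaction, adjusted p = 0.0026).

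Rank 42, chr4:77447125-77459293, also on chromosome 4, was the only other kidney member with a change between times, where 0.63% of all targets had one. It had 133 to 179 CPM in kidneys 8 h after vehicle and 81.8 to 97.7 CPM after the high dose. At 24 h it had 258, 168, 175, 188, and 168 CPM in vehicle and 44.4, 36.7, 35.9, 50.6, and 46.3 CPM after the high dose. The log2 fold change went from -0.72 ± 0.11 to -2.12 ± 0.16, a difference of -1.41 ± 0.19 (edgeR interaction, adjusted p = 0.00039). Rank 162, chr4:5325119-5345118, fell from 95.2 to 166 CPM in vehicle to 18.4 to 35.3 CPM at 24 h (log2 -2.10 ± 0.21).

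Ranks 56 and 138 were called in the kidney at 3 comparisons each. Rank 56, chr1:229080911-229096982, had 174 to 231 CPM in vehicle at 8 h, 86.5 to 121 after the low dose, and 66.1 to 105.4 after the high dose, with log2 fold changes of -0.89 ± 0.11 and -1.29 ± 0.12. The low-dose call held in 5 of 10 fits that left out 1 library. Rank 138, chr8:44159511-44164866, had 114 to 143 CPM in vehicle at 8 h, 56.6 to 79.3 after the low dose, and 42 to 64.2 after the high dose, with log2 fold changes of -0.96 ± 0.11 and -1.15 ± 0.12. Rank 128, chr19:24732525-24746677, fell from 2.69 to 5.02 CPM to 1.02 to 1.96 CPM at 8 h after the high dose (log2 -1.44 ± 0.27). This call on a low level held in 2 of 10 fits that left out 1 library.

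Rises in the kidney were few. Rank 96, chr1:263613753-263625000, had 7.11, 5.50, 5.81, 8.17, and 7.15 CPM in vehicle kidneys at 8 h and 14.4, 20.8, 16, 20.4, and 21.3 CPM after the low dose. After the high dose it had 11, 9.73, 14.1, 11.5, and 13 CPM, also above every vehicle library. At 24 h it had 5.59 to 7.35 CPM in vehicle and 12.7 to 22.3 CPM after the high dose. The log2 fold changes were 1.44 ± 0.15 for the low dose at 8 h and 1.62 ± 0.15 for the high dose at 24 h (edgeR, adjusted p = 0.00094 and 4.8e-05). Rank 28, chr2:44315476-44335475, rose from 59.7 to 71.2 CPM to 96.8 to 144 CPM at 24 h (log2 1.04 ± 0.12), and rank 167 from 24.3 to 32.9 to 46.6 to 57.8 CPM (log2 0.92 ± 0.10).

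Of the 9 members called in both organs, rank 96 changed in opposite directions. In the liver it had 154 to 290 CPM in vehicle and 82 to 126 CPM at 8 h after the high dose, and 187 to 310 against 32.4 to 99.5 CPM at 24 h, with log2 fold changes of -1.15 ± 0.17 and -1.67 ± 0.32 (-1.80 without the near copy). Rank 55, chr5:74982902-74997342, was higher in the liver (log2 1.39 ± 0.16) and lower in the kidney (-1.18 ± 0.21) at 8 h after the high dose. The other 7 were lower in both organs wherever they were called. The share of all targets called in both organs is not given here, so this overlap and its directions are a description only. The difference between organs was not tested for these members.

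**Figure D5:**
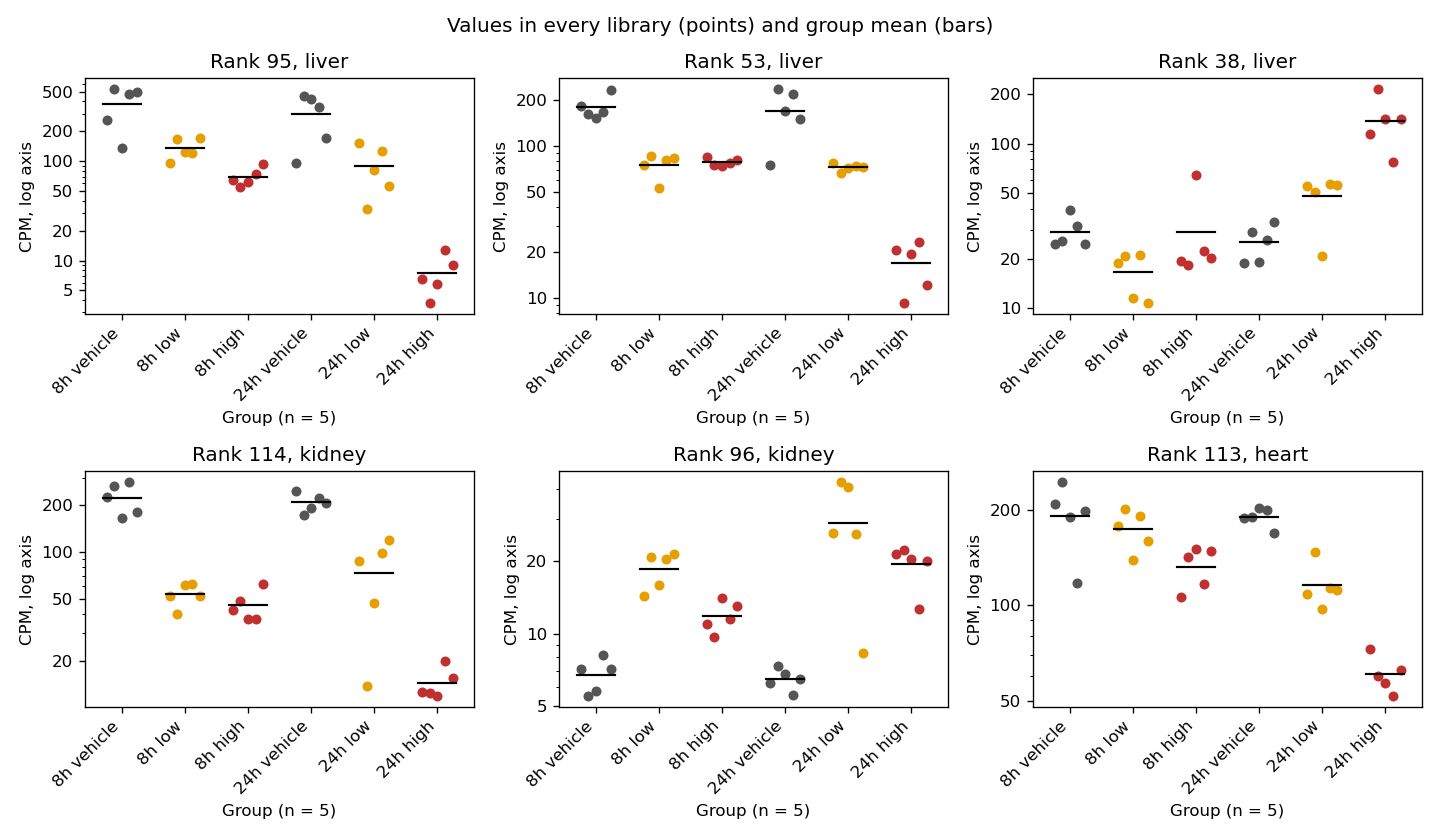
CPM on log axes in every library (points; n = 5 per group) and the group mean (bars) for 6 members named in the text: ranks 95, 53, and 38 in liver, ranks 114 and 96 in kidney, and rank 113 in heart. Grey is vehicle, orange the low dose and red the high dose; in ranks 95, 53, 114, and 113 all high-dose libraries at 24 h lie below every vehicle library, and in ranks 38 and 96 above.

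In the heart no member passed at 8 h or after the low dose at 24 h. At 8 h after the low dose 0.0% of all targets passed, after the high dose 0.0158%, and at 24 h after the low dose 0.0%. The members with an unadjusted p under 0.05 (edgeR) numbered 8, 36, and 25 in these 3 comparisons, and neither DESeq2 nor limma called a member. At 24 h after the high dose 1 member of 196 was higher and 1 lower, against 0.531% and 0.182% of all targets.

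The fall was rank 113, chr15:33656844-33676843. Its vehicle hearts at 24 h had 188, 190, 202, 199, and 169 CPM, its low-dose hearts 108.6, 148, 97.7, 114, and 112 CPM, and its high-dose hearts 72.9, 60.2, 56.9, 51.9, and 62.9 CPM. The 3 groups did not overlap. The log2 fold changes were -0.70 ± 0.10 at the low dose, which missed the limits (edgeR, adjusted p = 0.079), and -1.64 ± 0.09 at the high dose (adjusted p = 1.3e-05). At 8 h it had 118 to 244 CPM in vehicle and 105.9 to 151 CPM after the high dose.

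The rise was rank 66, chr1:227092035-227112034, with 54, 57.3, 52.8, 55.4, and 54.3 CPM in vehicle hearts and 116, 115, 101.1, 108.1, and 156 CPM after the high dose at 24 h. The low-dose hearts, at 70.9 to 120 CPM, were also above every vehicle library. Its log2 fold changes were 0.75 ± 0.13 at the low dose (edgeR, adjusted p = 0.16) and 1.12 ± 0.10 at the high dose (adjusted p = 0.00024). No member changed its high-dose effect in the heart between 8 and 24 h by edgeR, against 0.00353% of all targets; 14 members had an unadjusted p under 0.05, DESeq2 called 2, and limma none.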

How the data were processed

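RNA from liver, kidney, and heart (90 libraries, 18 groups of 5) was sequenced from poly(A)-selected, strand-specific, paired-end libraries. The authors quantified reads with kallisto 0.42.2 against an Rnor_6.0 reference and deposited, per library and target, estimated counts and TPM (a length-corrected, library-scaled abundance). How the genomic intervals were added to that reference is not given in the sources used here. Samples were grouped by their labels. By the study's design replicates are separate rats, but the near-copy pair of livers cannot be from separate rats as labelled. The replicate numbers are in accession order.

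Estimated counts were summed over the 90 libraries and the 200 intervals with the largest sums were taken. The members and the lists were chosen with earlier results of these data known. Counts were rounded and tested over all targets with edgeR 4.0.16 (quasi-likelihood test, filterByExpr, TMM factors, Benjamini-Hochberg adjustment) in R 4.3.3. A member was called at an adjusted p of at most 0.01 with a fold change of 0.60 or more in natural-log units, either way; the interaction used the adjusted p alone. Printed CPM values carry TMM factors over all 90 libraries. Standard errors follow ±, and for edgeR they were worked out as the absolute log2 fold change over the square root of the F statistic of the test. Alternatives were DESeq2 1.42.0, no filter on low counts, intervals fitted alone, limma 3.58.1 on log2(TPM + 1), a covariate for kidney library numbers above 90, and leaving out each library. The share of the 13 high-spread members as a covariate, the runs of library numbers as a covariate, and library numbers 30 apart between organs as a block were added after seeing the data. The fits were tested on simulated data. The members named in the text are the 10 largest sums, those at the rank limit and the neighbouring pairs, the 3 most abundant set apart in each organ, up to 3 of the largest calls per direction and comparison, and up to 2 changes between times per direction. Ranks 11, 12, 46, 55, 149, and others given as part of a count were chosen after their values were seen. The planned lists of named genes could not be applied, since no table used here pairs the identifiers of the files with symbols. Total estimated counts were 16332764 to 36303248 per library, and n = 5 per group limits the precision.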

Additional observations from a re-analysis of the deposited data

Results flagged for a closer look

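In 96 groups of 5 libraries checked for a library far from the others, 12 were flagged by Dixon's test, and chance flags about 1 in 20. The cause was not tested for any of them. The share of a library on the 200 members had a far library in 5 groups: 21.5% in replicate 3 of the 8-h vehicle livers, 26.7% in replicate 3 of the 8-h high-dose livers, 17.7% in replicate 5 of the 8-h vehicle hearts, 11.1% in replicate 5 of the 8-h low-dose hearts, and 18.9% in replicate 4 of the 8-h high-dose hearts. In each the far library was the highest, and those of the 8-h vehicle and high-dose livers carry the library numbers 16 and 14, with the low-dose liver numbered 15, at 24.2%, between them. On the 187 members of lower spread, replicate 5 of the 24-h low-dose kidneys was far below the others with 1.38%.

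Single members had a far library in 6 groups. Rank 27 stood at 14.6 CPM in replicate 2 of the 24-h vehicle livers. Rank 28 had 71.2 CPM in replicate 2 and rank 42 had 258 CPM in replicate 1 of the 24-h vehicle kidneys. Rank 66 had 156 CPM in replicate 5 of the 24-h high-dose hearts. The lowest libraries were far from the rest for rank 56, with 86.5 CPM in replicate 5 of the 8-h low-dose kidneys, and for rank 96, with 12.7 CPM in replicate 4 of the 24-h high-dose kidneys.

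For 10 of the named members the high-dose effect differed between 8 and 24 h by the interaction test. On the log2 scale the differences were -1.41 for rank 42 and -1.56 for rank 114 in the kidney. In the liver they were -2.97 for rank 95, -2.24 for rank 126, -2.22 for rank 53, -0.84 for rank 167, -0.76 for chr16:18821145-18841144, 0.92 for rank 196, 2.16 for rank 156, and 2.33 for rank 38.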

How the results depend on the processing

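Library numbers in the titles lie 30 apart between organs of matching groups, so a fit with such numbers as a replicate block was added after seeing the data, for the 8, 10, and 8 pairs with numbers up to 90. The labels do not say that a number marks a rat. The deviations of same-numbered libraries from their group means correlated over 0.1 across targets in 2 of 8 pairs (liver and kidney), 0 of 10 (liver and heart), and 0 of 8 (kidney and heart), and 4, 3, and 4 libraries of the first organ correlated best with their own number. The median correlation of same-numbered pairs was 0.057, 0.041, and 0.063, beside -0.028, -0.0027, and -0.016 for other pairs of the same time. The number of best matches that chance would give was not worked out. The block gave 99, 116, and 98 members called, against 93, 118, and 95 in the same libraries without it. The replicate numbers within groups are in accession order and pair nothing. With the runs of library numbers as a covariate, also added, 12 members passed in the liver 8 h and 0 in the liver 24 h after the low dose. Of 687 values of named members under alternatives, 639 kept their direction and call, 48 kept the direction and lost the call, and 0 reversed. Of 113 other values of counts and shares outside the leave-one-out fits, 91 stayed within 1.5 times and 22 moved. With limma on log2(TPM + 1), calls numbered 7 and 24 in the 8-h liver (low and high dose), 2 and 9 in the kidney (low dose at 8 h, high dose at 24 h), and 1 in the kidney interaction. In the liver 24 h after the low dose there were 17 with DESeq2 and 0 without the filter, with intervals alone, with limma, and with the share covariate. For the low dose in the kidney at 24 h, DESeq2 gave 2 and intervals alone 1. The liver interaction gave 6 without the filter and 5 with intervals alone. DESeq2 gave 4 and 2 in the kidney and heart interactions. The median target moved by 0.33 with limma in the liver 24 h after the low dose, and by 0.40 after the high dose. The cause of these differences was not tested.

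Leaving out 1 library gave 0 to 26 calls in the liver 24 h after the low dose, and each omission other than that of vehicle replicate 1 gave 0. After the high dose the range was 20 to 56, with 20 without high-dose replicate 5 and 56 without vehicle replicate 1. In the kidney at 8 h the range was 2 to 4 for the low dose, with 2 without vehicle replicate 1 or 4 or low-dose replicate 1 or 3, and 4 to 10 for the high dose. The 4 came without vehicle replicate 5 or high-dose replicate 3. It was 0 to 1 for the low dose in the kidney at 24 h, 8 to 16 in the liver interaction, and 2 to 4 in the kidney interaction. Ranking by summed TPM kept 99 of the 200 members. The members took a median of 65.5% of interval counts. With touching ends as the limit 0 members had a member neighbour, and within 100000 bases 10 had one.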

Other observations

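Values in a few members split libraries of 1 organ. Rank 149 had 5.47 to 6.64 CPM in 5 of the 30 liver libraries and 49.4 to 390 CPM in the other 25. The low set held libraries of the 8-h vehicle and of all 3 24-h liver groups. Rank 27 had 15.5 CPM in replicate 2 of the 8-h vehicle hearts and 8.78 CPM in replicate 2 of the 24-h high-dose hearts, whereas every other heart library had 205 to 724 CPM.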
